A study of Mus musculus with 4 samples.

Results

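Open chromatin at the genes of the epidermal growth factor (EGF) receptor family was examined in keratinocytes of imiquimod-treated mouse skin by ATAC-seq, which uses Tn5 transposase to tag accessible DNA with sequencing adapters. The genes were the receptors Egfr, Erbb2 and Erbb3, the receptor inhibitor Errfi1, and the ligands Areg, Ereg, Btc, Epgn, Hbegf and Tgfa. Regions were kept where a merged peak overlapped the gene body or the 25 kb on each side of it, and the chromosome 5 genes Epgn, Ereg, Areg and Btc were taken as 1 span, the ligand cluster. This gave 119 of the 82641 regions in the merged peaks of all libraries.

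The 4 libraries were 2 of wild-type (WT) and 2 of Mapk8-KO mice, which lack JNK1, the kinase that Mapk8 encodes. The methods state that these mice carried floxed Mapk8 and a K14-Cre transgene, active under the keratin 14 promoter, so deletion was aimed at the epidermis, and that littermates served as controls. All mice were C57BL/6 females of 8 to 12 weeks whose shaved skin had received Aldara, a cream with 5% imiquimod, daily for 8 days. They were killed 4 h after the last dose. EpCam+ CD49f hi epidermal cells were sorted, and 20000 to 50000 of them went into each library. No untreated skin was included, so every value describes inflamed epidermis. The labels do not tie a library to an animal, and p-values therefore measure only the spread between these samples.

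As background, EGF receptor ligands are made as membrane-bound precursors and are shed by proteases to act on the same or neighbouring cells. Ligand binding drives receptors into pairs and starts their tyrosine kinase, and signals then run through the Ras and ERK kinases, among others. In epidermis this system is known for driving keratinocyte growth, migration and repair. JNK kinases phosphorylate Jun proteins, which with Fos proteins form AP-1, a factor that binds TGACTCA. The related CRE letters TGACGTCA are bound by CREB and ATF proteins and by some Jun pairs.

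The sequences that follow are those the results turn on most. The first 6 are 201-base windows centred on the strongest summit, on the plus strand of GRCm38 (mm10), with every AP-1 match of either strand in capitals. They comprise the AP-1 regions whose rank differed between genotypes and the AP-1 region that ranked highest in all libraries in the Egfr locus and in the ligand cluster.
Egfr intron, ranked higher in WT, chr11:16791287-16791487: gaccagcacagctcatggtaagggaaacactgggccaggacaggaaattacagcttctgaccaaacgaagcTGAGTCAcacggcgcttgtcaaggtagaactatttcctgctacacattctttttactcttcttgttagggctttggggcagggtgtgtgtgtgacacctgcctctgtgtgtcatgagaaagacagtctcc
Egfr intron at the Egfros start, ranked higher in Mapk8-KO, chr11:16830694-16830894: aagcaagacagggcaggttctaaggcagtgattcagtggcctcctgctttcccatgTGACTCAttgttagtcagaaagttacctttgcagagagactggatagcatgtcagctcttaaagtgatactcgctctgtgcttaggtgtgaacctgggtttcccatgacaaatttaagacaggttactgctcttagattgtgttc
Egfr intron, highest-ranked, chr11:16851150-16851350: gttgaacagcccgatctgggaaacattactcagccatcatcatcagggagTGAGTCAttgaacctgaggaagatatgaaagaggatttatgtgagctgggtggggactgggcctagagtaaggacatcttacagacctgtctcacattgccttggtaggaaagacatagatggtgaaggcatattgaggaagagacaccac
Ereg intron, highest-ranked, chr5:91083128-91083328: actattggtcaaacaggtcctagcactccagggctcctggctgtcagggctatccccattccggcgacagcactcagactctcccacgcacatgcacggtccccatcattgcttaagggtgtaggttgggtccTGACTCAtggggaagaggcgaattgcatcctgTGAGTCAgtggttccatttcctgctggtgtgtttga
Downstream of Ereg, ranked higher in Mapk8-KO, chr5:91098296-91098496: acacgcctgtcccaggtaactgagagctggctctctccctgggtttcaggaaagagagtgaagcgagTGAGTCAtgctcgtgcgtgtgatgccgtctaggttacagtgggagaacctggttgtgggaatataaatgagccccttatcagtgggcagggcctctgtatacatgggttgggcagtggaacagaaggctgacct
Downstream of Areg, ranked higher in WT, chr5:91156807-91157007: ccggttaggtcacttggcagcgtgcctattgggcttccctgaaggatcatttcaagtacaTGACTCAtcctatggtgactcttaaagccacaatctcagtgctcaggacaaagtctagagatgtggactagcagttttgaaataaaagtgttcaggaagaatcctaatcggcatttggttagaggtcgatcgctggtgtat

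The Ereg window held 2 AP-1 matches, which began 33 and 65 bases past the summit, and each of the other windows held 1. The other pair of sequences are the 250 bases before the start sites of Areg and Errfi1 in RefSeq (GRCm38.p6, plus strand), with the CRE match in capitals. They are shown because a CRE is rare at mouse start sites and these genes have one.
Areg, chr5:91139349-91139598: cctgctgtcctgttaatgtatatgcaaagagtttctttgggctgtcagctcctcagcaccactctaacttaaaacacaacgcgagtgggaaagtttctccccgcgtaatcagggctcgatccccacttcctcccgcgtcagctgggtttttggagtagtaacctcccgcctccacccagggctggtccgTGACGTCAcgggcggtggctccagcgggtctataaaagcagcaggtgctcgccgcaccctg
Errfi1, chr4:150854820-150855069: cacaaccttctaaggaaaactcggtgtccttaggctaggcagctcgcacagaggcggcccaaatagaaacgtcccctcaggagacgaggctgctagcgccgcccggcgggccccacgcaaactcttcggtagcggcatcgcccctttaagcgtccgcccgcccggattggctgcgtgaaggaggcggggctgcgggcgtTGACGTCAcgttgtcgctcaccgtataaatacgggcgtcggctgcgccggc

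The libraries differed in depth. The lists held 69927 and 54856 peaks for the WT libraries, 69583 for Mapk8-KO 1 and 49856 for Mapk8-KO 2. Summit pileups, the numbers of fragments over the peaks' highest points, were 0.694 (WT 2), 1.12 (Mapk8-KO 1) and 0.646 (Mapk8-KO 2) of those in WT 1. The genome-wide background on which the peak caller had set each list was 0.719, 1.18 and 0.735 of that in WT 1, so pileups stood lowest over background in Mapk8-KO 2, at 0.879 of WT 1. Start sites of the epidermal markers checked were open in 6 to 8 of 8 genes per library, and those of 5 leukocyte markers were open in none. A peak lay at 2 of 3 fibroblast and 2 of 3 melanocyte markers in every library. Of the 3 endothelial markers, Kdr had a peak in all but Mapk8-KO 2, and Pecam1 and Cdh5 had none in any library. The part of such cells in the results was not tested. The peak at Krt14, the gene whose promoter drives Cre, had 38 and 17 fragments in the WT libraries, against 199 and 109 in the Mapk8-KO libraries.

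Start sites came first. All 10 genes had an open region within 2 kb of an annotated start in all 4 libraries, and limma called none of these starts different between genotypes. The measure used here is the summit pileup divided by the library's relative depth, called the scaled pileup. Where a gene had several such regions, that with the highest fold enrichment over local background is given. In bulk cells, a lower pileup from fewer cells with open chromatin cannot be told apart from less frequent opening in each cell.

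Egfr encodes the receptor for all the ligands of the list. Its gene lies on chr11:16752203-16918158, plus strand, and its start region at chr11:16751830-16753910 had scaled pileups of 100 (WT 1), 97.9 (WT 2), 109 (Mapk8-KO 1) and 95.9 (Mapk8-KO 2). It was the most open start of the list in every library. Erbb2, which encodes a receptor without a known ligand that pairs with the others, lies on chr11:98412470-98437716, plus strand. Its start region, chr11:98412271-98412871, had 33, 34.6, 35.8 and 29.4 fragments in the same order of libraries. Erbb3, on chr10:128567523-128589652, minus strand, encodes a neuregulin receptor with a weak kinase. Its start region, chr10:128589613-128590209, had 78, 73.4, 67.1 and 88.2 fragments, with Mapk8-KO 2 the highest, and held an AP-1 match within 100 bp of its summit.

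Errfi1 encodes MIG6, which binds active receptors and blocks their kinase. It lies on chr4:150853919-150868892, plus strand, and its start region with the CRE printed above, chr4:150854847-150855427, had 37, 64.8, 42.1 and 38.7 fragments. WT 2 was the high library there, and the other 3 lay together. This region also holds the start of 1700045H11Rik.

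Among the ligands, Hbegf, on chr18:36504927-36515805, minus strand, encodes heparin-binding EGF-like growth factor. It had 3 called regions within 2 kb of its start. That with the highest fold enrichment, in the gene's intron at chr18:36513948-36514451, had 87, 82.1, 79.7 and 89.8 fragments and also held an AP-1 match. The region over the start itself, chr18:36515689-36516102, named after its values were seen, had 44, 66.2, 61.8 and 61.9 fragments. Its local background of 6.97 to 12.0 fragments was high, so its percentile of fold enrichment was only 1.46 to 11.7. Epgn encodes epigen and lies on chr5:91027464-91035215, plus strand. Its start region, chr5:91027129-91027743, had 82, 87.9, 68.9 and 82.0 fragments.

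Areg encodes amphiregulin, a major autocrine ligand of keratinocytes, and lies on chr5:91139599-91148432, plus strand. Its start region, chr5:91139123-91139885, holds the CRE printed above and had 62, 44.6, 54.6 and 57.3 fragments. Btc encodes betacellulin and lies on chr5:91357261-91402994, minus strand. Its start region, chr5:91402185-91403170, had 45, 43.2, 53.7 and 54.2 fragments, so both Mapk8-KO libraries were above both WT libraries, as at 20.3% of all regions. Tgfa encodes transforming growth factor alpha and lies on chr6:86195223-86275719, plus strand. Its start region, chr6:86194920-86195953, had 30, 44.6, 47.4 and 43.3 fragments, with WT 1 alone low.

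Ereg encodes epiregulin and lies on chr5:91074622-91093646, plus strand. Its start was among the least open of the list. The region 1145 bp inside the gene, chr5:91075767-91076217, had 30, 34.6, 30.4 and 21.7 fragments. The region over the start itself, chr5:91074315-91074957, named after its values were seen, had 15, 25.9, 21.5 and 27.9.

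By level, Egfr stood first in every library. Epgn, Erbb3 and Hbegf overlapped each other at 67.1 to 89.8, below Egfr. Areg, Btc, Errfi1 and Tgfa overlapped in turn at 30 to 64.8, and Erbb2 and Ereg overlapped at 21.7 to 35.8.

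In limma, fitted on log2 pileups of all 40159 regions called in the 4 libraries, the WT minus Mapk8-KO difference at these 10 start regions ran from −0.31 at Tgfa to 0.33 at Ereg. The standard errors were 0.18 to 0.29, and the adjusted p-values 0.709 to 0.999. A p-value of this kind does not show that the genotypes were alike. The plot of start sites gives every library's value.

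**Figure D1:**
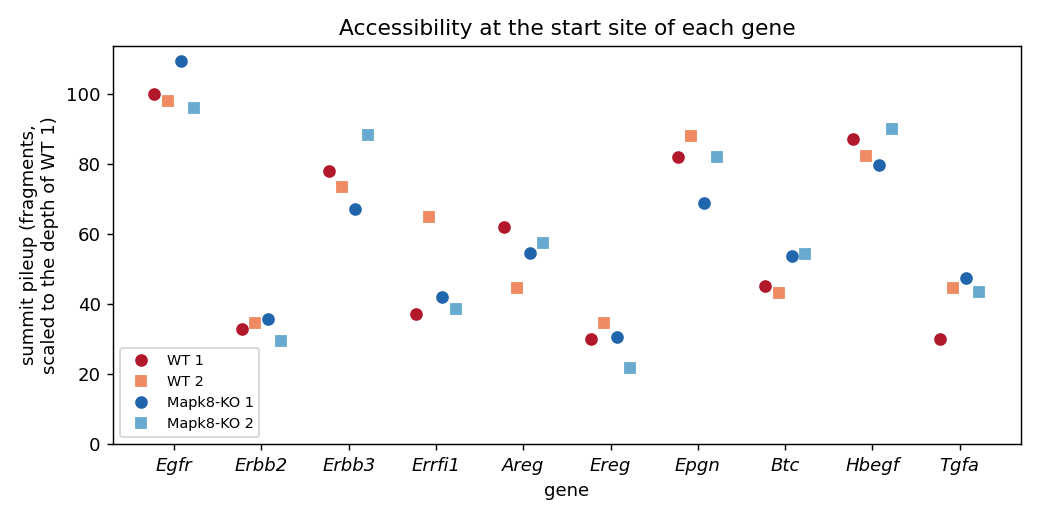
Scaled summit pileup in fragments (y axis) at the start region of each of the 10 genes (x axis), 1 point per library, red for WT and blue for Mapk8-KO, circles for replicate 1 and squares for replicate 2. Egfr was the highest in every library at 95.9 to 109, and Ereg and Erbb2 lay among the lowest at 21.7 to 35.8.

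Most regions lay away from start sites, as over all regions. Within 2 kb of an annotated start of any gene lay 25.2% of the 119, against 26.7% of all regions. Of the 119 regions, 16 lay within 2 kb of a start of the listed genes, 7 at the start of another coding gene, and 96 elsewhere. The Egfr locus held 24 regions, the ligand cluster 43, Tgfa 14, Hbegf 13, Erbb2 10, Erbb3 8 and Errfi1 7. In the Egfr locus 15 of the regions were called in all 4 libraries, and in the ligand cluster 27. Over all loci 72 of 119 (60.5%) were called in every library, against 48.6% of all regions, 13 in 3 libraries, 17 in 2 and 17 in 1. Regions called in all 4 had a median width of 514.5 bp, against 207 bp for those called in 1. The shortest peak kept in any list was 153 to 174 bp, so a narrow region can be missing from a list for its width as well as its height.

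The most open distal region by pileup lay in an Egfr intron, 48231 bp past the start, at chr11:16800442-16801120. Its scaled pileups were 196, 173, 184 and 170, again with the WT libraries first. The genotypes differed there by 0.06 ± 0.16 (log2, SE). By rank, the leading region of the locus was the intronic AP-1 region chr11:16850782-16851590, at percentiles of 90.1, 94.2, 86.3 and 93.1 among regions called everywhere. Its pileups were 149, 143, 136 and 89.8, so Mapk8-KO 2 alone was low, and the limma difference of 0.40 ± 0.18 had an adjusted p of 0.418.

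In the ligand cluster the leading region was the Ereg intronic region with 2 AP-1 matches, 8434 bp past the start at chr5:91083056-91083506. It had percentiles of 94.5, 92.2, 99.3 and 91.4 and pileups of 73, 70.6, 94.9 and 65.0. Ereg thus had a weak start and, inside the gene, the highest-ranked region of the cluster. The difference between genotypes was −0.13 ± 0.20 (log2, SE). The leading Tgfa region lay beyond the 3′ end of the gene at chr6:86283114-86283634, 87891 bp from the start, at percentiles of 94.2 to 99.2. Its pileups of 77, 60.5, 58.2 and 57.3 differed by 0.24 ± 0.21 between genotypes. It held none of the AP-1, CRE, p63, TEAD or GRHL letters searched.

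The leading regions of the other loci were less prominent or belonged to neighbours. In the Erbb3 locus it was the start of Pa2g4, which encodes an ErbB3-binding protein, at chr10:128565747-128566544, with pileups of 140, 111, 150 and 138. In the Erbb2 locus it was the Erbb2 start region itself, whose percentile was 36.4 to 63.2. The Errfi1 locus was led by a region 10375 bp upstream with 1 AP-1 match, chr4:150843163-150843544, at percentiles of 42.2 to 74.8. The Hbegf locus was led by an intronic region of the neighbouring gene Slc4a9, chr18:36534489-36535372, at percentiles of 27.9 to 43.6. Limma called none of these 4 regions, at adjusted p-values of 0.722 to 0.970.

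**Figure D2:**
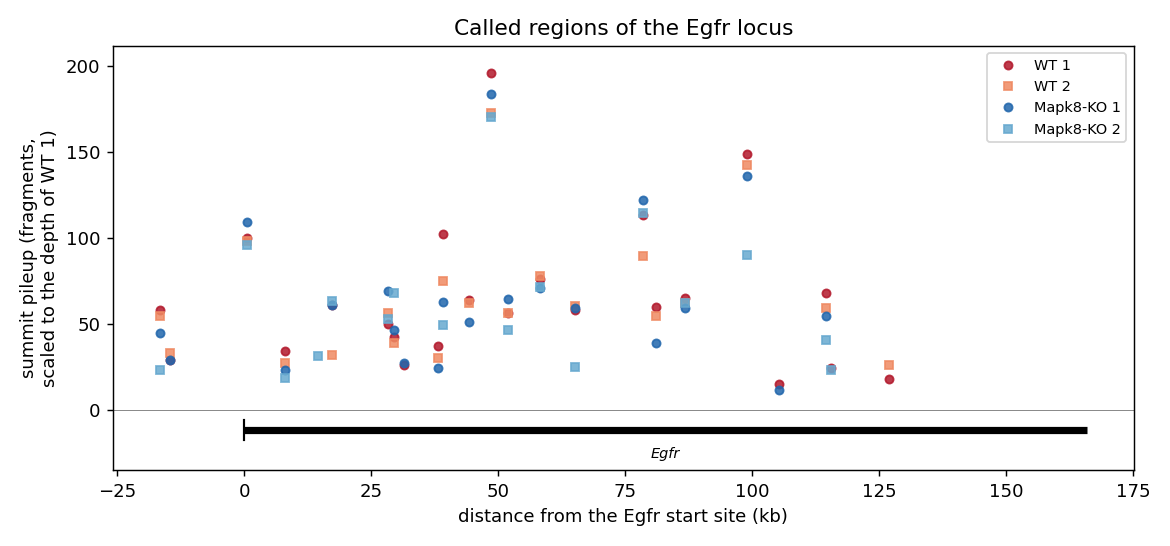
Scaled summit pileup in fragments (y axis) of the 24 regions of the Egfr locus against the distance from the Egfr start in kb (x axis), 1 point per library in which the region was called. The bar marks the gene and the tick its start. The region 48231 bp past the start was the highest in all libraries at 170 to 196, and single points of Mapk8-KO 2 lie below the others at several regions.

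Calls were compared next, to ask whether any region of these loci was open in 1 genotype only. A region specific to WT had a peak in WT 1 and WT 2 but in neither Mapk8-KO library. There were 2 such regions, 1.68% of the 119, where this held for 2.17% of all 82641 regions. The reverse, specific to Mapk8-KO, held for 0 of the 119, against 1.65% of all regions. These shares are near the background.

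Both WT-specific regions were low. That in an Egfr intron, chr11:16878767-16879381, 126556 bp past the start, had a raw pileup of 18 fragments in each WT library. That in the cluster, chr5:91210084-91210581, 70485 bp past the Areg start, had 17 and 24. Neither held an AP-1 match near its summit. The lowest pileup of any called peak was 8 to 10 fragments, and Mapk8-KO 2 was the shallowest library. With all lists shortened to the length of the shortest, neither region stayed specific to WT.

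Most missing calls fell in WT 2 and Mapk8-KO 2, the libraries with the lower relative depth. Mapk8-KO 2 lacked 42 of the 119 regions, or 35.3%, against 40.9% of all regions. WT 2 lacked 31 (26.1% against 34.8%), Mapk8-KO 1 lacked 17 (14.3% against 16.8%) and WT 1 lacked 8 (6.72% against 16.2%). Regions called everywhere but in Mapk8-KO 2 numbered 11, or 9.24%, against 9.91% of all regions. They included Egfr intronic regions at chr11:16796424-16796681 and chr11:16833174-16833587, and Areg regions at chr5:91123501-91123846 upstream and chr5:91145123-91145393 inside the gene. These 4 were chosen after their values were seen. The first had raw pileups of 64, 43 and 57 in the libraries that called it, but a local background of 10.4 to 17.2 fragments and a width of 258 bp.

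Ranks of fold enrichment were then compared, which do not depend on the depth scale. A region counted as ranked higher in a genotype when both of its percentiles there exceeded both in the other by 10 points or more. Of the 72 regions, 2 ranked higher in WT, or 2.78%, against 4.65% of all regions called everywhere. Another 4 ranked higher in Mapk8-KO, or 5.56%, against 4.07%. These shares, too, were close to those of all regions.

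Egfr appeared in both directions. The AP-1 region 39027 bp past its start, chr11:16791238-16791618, ranked higher in WT, at percentiles of 52.2 and 42.9 against 30.2 and 26.1. Its scaled pileups were 102, 74.9, 62.7 and 49.5. The WT libraries were both above the Mapk8-KO libraries, and the limma difference was 0.65 ± 0.21 with an adjusted p of 0.184. On the scale of log2 fold enrichment the difference was 0.32 ± 0.20.

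The AP-1 region 78052 bp past the Egfr start, chr11:16830263-16831091, holds the start of Egfros, a non-coding gene within Egfr. It ranked higher in Mapk8-KO, at percentiles of 81.8 and 83.0 against 62.7 and 59.2. Its scaled pileups of 113, 89.3, 122 and 115 separated the genotypes less clearly, with WT 1 next to Mapk8-KO 2, and differed by −0.23 ± 0.18 (adjusted p = 0.689).

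In the ligand cluster the AP-1 region 17078 bp past the Areg start, chr5:91156677-91157134, ranked higher in WT, at 42.5 and 46.8 against 26.2 and 24.0. Its pileups were 30, 31.7, 21.5 and 23.2, so both WT libraries were above both Mapk8-KO libraries, and the difference was 0.47 ± 0.29 (adjusted p = 0.602). The AP-1 region 23431 bp past the Ereg start, chr5:91098053-91098602, ranked higher in Mapk8-KO, at 67.4 and 61.6 against 37.6 and 42.1. Its pileups were 66, 57.6, 92.2 and 72.7 and differed by −0.41 ± 0.20 (adjusted p = 0.474). The cluster thus held 1 region in each direction, and both had AP-1.

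The other 2 regions ranked higher in Mapk8-KO lacked AP-1. In an Errfi1 intron, chr4:150865561-150866337, 10488 bp past the start, the percentiles were 52.6 and 26.6 in Mapk8-KO against 11.8 and 14.9 in WT. The pileups were 27, 25.9, 46.6 and 37.1, a difference of −0.65 ± 0.27 with an adjusted p of 0.366. Mapk8-KO 1 was the highest library. Downstream of Hbegf, chr18:36492517-36492970, 22835 bp from the start, the percentiles were 69.8 and 53.8 in Mapk8-KO against 36.6 and 19.6 in WT. The pileups were 28, 25.9, 43.0 and 37.1, a difference of −0.57 ± 0.27 (adjusted p = 0.457).

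**Figure D3:**
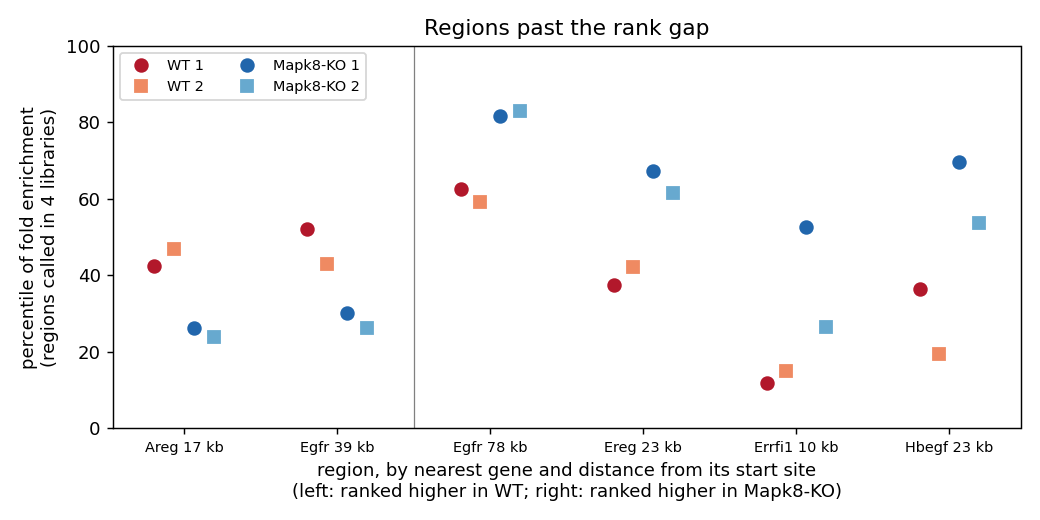
Percentile of fold enrichment among regions called in all 4 libraries (y axis) for the 6 regions past the rank gap (x axis, by nearest gene and rounded distance from its start), 1 point per library. The regions near Areg and Egfr on the left have both WT points above both Mapk8-KO points, and the 4 on the right the reverse, with the widest spread between replicates at Errfi1 (26.6 and 52.6).

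The test of pileups across all regions called none of these loci. With limma at an adjusted p of 0.05, 0 of 72 regions were higher in WT, against 0.214% of all regions, and 0 of 72 higher in Mapk8-KO, against 0.0199%. At an unadjusted p under 0.05 there were 9 of 72, or 12.5%, against 10.4% of all regions. Of these 9, 6 were higher in WT and 3 in Mapk8-KO. With 2 libraries against 2, an exact permutation test of any single region could not go below p = 0.333.

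The median difference over the 72 regions was 0.03 (log2, WT minus Mapk8-KO), against −0.01 over all regions, with 40 higher in WT and 32 in Mapk8-KO. By locus, the median was 0.07 for Egfr, 0.06 for Erbb2, −0.03 for Erbb3, 0.12 for Errfi1, 0.13 for Tgfa, −0.12 for Hbegf and 0.03 for the ligand cluster. Of all regions called everywhere, 49.3% had the higher mean in WT. In the Hbegf and Erbb3 loci 5 of 6 regions each had the higher mean in Mapk8-KO, 1 of those of Hbegf at a difference of only −0.0009. WT had the higher mean in 10 of 15 regions for Egfr, 5 of 7 for Erbb2, 4 of 5 for Errfi1, 4 of 6 for Tgfa and 15 of 27 for the ligand cluster. The median absolute log2 difference between the genotype means, each over 2 libraries, was 0.20 in the 72 regions and 0.19 in all regions. Between single libraries it was 0.18 for the WT pair (0.21 in all regions) and 0.27 for the Mapk8-KO pair (0.24 in all regions). Both WT libraries were above both Mapk8-KO libraries in 14 of 72 regions, or 19.4%, and below them in 12, or 16.7%, against 20.3% of all regions in each direction.

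**Figure D4:**
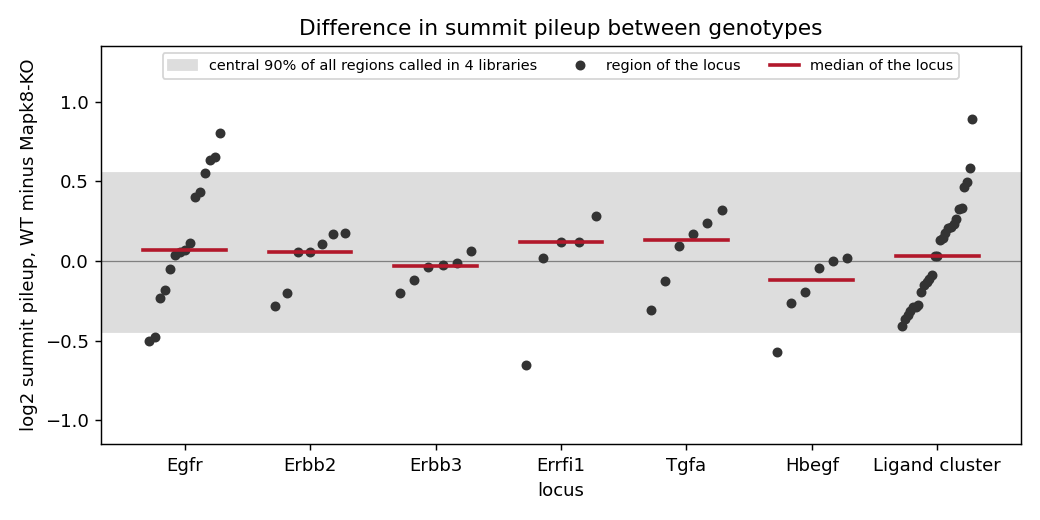
Log2 summit pileup, WT minus Mapk8-KO (y axis), of each region called in all 4 libraries, by locus (x axis), with the locus median as a line and the central 90% of all 40159 regions (−0.45 to 0.56) shaded. Points lie on both sides of 0 in every locus, and 9 of 72 fall outside the band.

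Of the 4 largest differences toward WT, 1 was the Egfr region 39027 bp past the start described above, and in the other 3 Mapk8-KO 2 lay well below Mapk8-KO 1. The region with the lowest adjusted p of the list, 0.178, lay between Areg and Btc at chr5:91241704-91242412, 102105 bp past the Areg start. Its scaled pileups were 57 and 53.3 in WT against 43.9 (Mapk8-KO 1) and 20.1 (Mapk8-KO 2), a difference of 0.89 ± 0.28. Upstream of Egfr, chr11:16735329-16735821 holds 2 AP-1 matches and a p63 match, and its pileups were 58 and 54.7 in WT against 44.8 and 23.2 in the same order. In an exon of Egfros, chr11:16817247-16817616 had 58 and 60.5 in WT against 59.1 and 24.8, so Mapk8-KO 1 lay between the WT libraries and only Mapk8-KO 2 was low. These 3 regions, and the Egfr region 48231 bp past the start, were chosen after their values were seen.

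Without Mapk8-KO 1, these 3 regions, the Egfr region 39027 bp past the start and the leading Egfr intronic region passed limma, 5 in all, with adjusted p-values of 0.00028 to 0.0123, on the assumption that the lone Mapk8-KO library varies as the WT libraries do. That fit called 1956 of all 40159 regions, where the fit of all 4 libraries called 94. Without Mapk8-KO 2, none of the 72 passed and the lowest adjusted p was 0.713. Among the 72 regions, Mapk8-KO 2 had under 50% of the scaled pileup of Mapk8-KO 1 in 2, or 2.78%, against 0.715% of all regions. WT 2 had under 50% of the scaled pileup of WT 1 in 0 of the 72, against 0.229% of all regions.

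**Figure D5:**
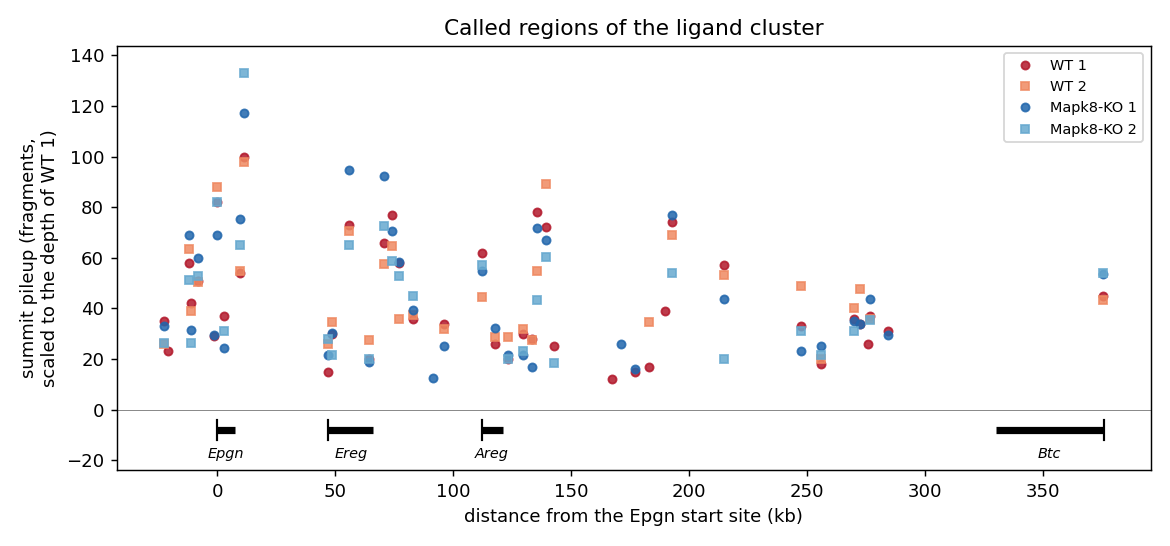
Scaled summit pileup in fragments (y axis) of the 43 regions of the ligand cluster against the distance from the Epgn start in kb (x axis), 1 point per library in which the region was called. Bars mark the genes and ticks their starts. Regions crowd around Epgn, Ereg and Areg and extend to the span between Areg and Btc, whereas the Btc start at the right stands alone with 43.2 to 54.2.

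AP-1 letters were somewhat more frequent than in the rest of the accessible genome, within counting error. A match to TGACTCA on either strand lay within 100 bp of the strongest summit in 33 of 119 regions, or 27.7% (Wilson 95% interval 20.5 to 36.4, counting error only), against 23.7% of all regions. Over 2 kb from any start it was 28 of 89, or 31.5%, against 28.0%. By share, the Egfr locus held most, 10 of 24 regions or 41.7%. The ligand cluster had 14 of 43 or 32.6%, Hbegf 4 of 13 or 30.8%, and Tgfa 2 of 14 or 14.3%, whereas Erbb2, Erbb3 and Errfi1 had 1 each. Among regions called in all libraries, the 19 with AP-1 had a median difference of 0.12 and the 53 without had 0.02. The same medians over all such regions were 0.13 with AP-1 and −0.05 without.

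CRE letters lay in 3 regions, the start regions of Areg and Errfi1 and a region in an exon of the non-coding gene Gm19619 between Areg and Btc, chr5:91282981-91283351, named after its motif was seen. All 3 lay within 2 kb of a start, where 30 of the 119 regions did so, and 1.83% of such regions genome-wide held the letters. TEAD letters, CATTCC, were found in 22 regions or 18.5% (Wilson 95% interval 12.5 to 26.4, counting error only), against 13.2% of all regions. The p63 letters CATGNNNNNNCATG were found in 2, or 1.68% against 1.2%. The GRHL letters AACCGGTT were found in none, against 0.242% of all regions. AP-1 and CRE letters cannot overlap each other, whereas TEAD letters can share the CA at the end of an AP-1 match. In RefSeq promoters, from 250 bases before to 50 after the start, sequences were found for 7 of the 10 genes. None held AP-1 letters, present in 5.20% of all 32851 promoters, and those of Areg and Errfi1 held a CRE, present in 1.79%. A match is a description of letters and not of binding.

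Other genes of the pathway were counted in the same way. The list comprised 43 genes for further receptors and ligands (Egf, Erbb4, the neuregulins), sheddases such as Adam17, adaptors such as Grb2, the Ras and ERK kinases, and inhibitors such as Cbl, the Sprouty genes and Lrig1. They held 376 regions, 186 of them called everywhere, and shared none with the 10 genes above. Called in WT only were 4, or 1.06% against 2.17% of all regions, and in Mapk8-KO only 1, or 0.266% against 1.65%. Past the rank gap were 9 of the 186 toward each genotype, or 4.84%, against 4.65% of all regions toward WT and 4.07% toward Mapk8-KO. Limma called 0 in either direction, with 14 at an unadjusted p under 0.05, or 7.53% against 10.4%. Their median difference was −0.07 (log2), against −0.01 over all regions.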

How the data were processed

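ATAC-seq peak lists of 2 WT and 2 Mapk8-KO libraries were analysed. Per the methods, the authors mapped paired reads to mm10 with Bowtie2 (version not given in the sources used here), discarded multi-mapping and low-quality reads, and called peaks with MACS2 at a q of 0.05. One list was deposited per library, and the stated parameters name no control. The highest q in any list was 0.0097. A Tn5 shift is not stated. Each deposited list gives a fold enrichment (a ratio of the summit pileup to local background), −log10 p and −log10 q values, and the summit offset in bp. The submitters' notes also name Trimmomatic 0.36 and STAR 2.5.3, which the methods use for RNA.

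From these files, peaks were merged at 1 bp overlap. Summit pileups were solved from the deposited fold and −log10 p, and gave whole numbers within 0.05 for nearly all peaks. This step and the test below were tested on simulated data. Genes were taken from GENCODE M21 (GRCm38.p6). Pileups of regions called in all 4 libraries were log2-transformed, each library was centred on its median ratio to the mean of the libraries, and genotypes were compared with limma 3.58.1 (R 4.3.3), using its variance trend, and p-values were adjusted by Benjamini-Hochberg over all regions. Read totals are unknown, so the count test named in the methods could not be used. RefSeq promoters were used for 7 of the genes, not for Erbb3, Ereg and Hbegf.

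The members and lists were chosen with earlier results of these data known. Named regions were the start region of each gene (highest fold within 2 kb), the region of each locus with the highest percentile in its lowest library, and all regions specific to a genotype, past the 10-point rank gap or past limma. Others are marked as chosen after their values were seen. Alternatives were a stricter q, lists of equal length, a 50% cover, other flanks and gaps, other ranks and normalizations, other motif windows, a replicate block, and leaving out each library.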

Additional observations from a re-analysis of the deposited data

How the results depend on the processing

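The count of regions specific to WT was 2 as reported, 0 with lists of equal length, and 4 where peaks had to cover 50% of a region. Leaving out 1 library gave 2 to 13 such regions, the most without WT 2 or without Mapk8-KO 1, and 1 to 4 specific to Mapk8-KO in place of 0. The labels give the replicate numbers no further meaning. After centring, same-numbered libraries deviated from their group means together with r = 0.039. Centring removes depth, in which same-numbered libraries were alike: 1 and 1.12 for replicate 1, and 0.694 and 0.646 for replicate 2. A shared batch was not tested. With lists cut to equal length within each replicate number, 2 regions were specific to WT and 1 to Mapk8-KO. With the rank gap taken only within each number, a looser rule, 6 ranked higher in WT in place of 2 and 6 in Mapk8-KO in place of 4. With the replicate number as a block, limma called 0 of the 72 regions (309 of all regions in place of 94), and 1 wider-pathway region in place of 0. Regions ranked higher in WT numbered 5 by −log10 p, 1 by percentile within the whole list and 4 with 50 kb flanks; those ranked higher in Mapk8-KO numbered 7 with 50 kb flanks. A gap of 5 points gave 9 and 10, and a gap of 20 points 0 in both directions. Leaving out 1 library gave 6 to 9 ranked higher in WT and 10 to 13 in Mapk8-KO, where fewer libraries loosen the rule. Limma called 0 to 5 of the 72 regions and 0 to 13 wider-pathway regions when 1 library was left out, the highest counts without Mapk8-KO 1. Over all regions limma called 94, 29 after quantile normalization, 47 of the more open regions alone, 7 to 1956 without 1 library, and 0 without the variance trend or on log2 fold enrichment. In the last pair, 3898 and 2698 regions had an unadjusted p under 0.05. The median difference of the 72 regions, 0.03 on the log2 scale, was −0.0148 on log2 fold enrichment, 0.00955 after quantile normalization and 0.00179 to 0.0338 without 1 library. The AP-1 share of 27.7% was 19.3% within 50 bp of the summit, where all regions gave 17.0%. The causes were not tested. Among the regions past the rank gap, the Egfr region 39027 bp past the start passed limma without Mapk8-KO 1. Peak lists show only regions that passed the caller, so lower accessibility below that floor was not detectable at this depth.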
